A study of Mus musculus with 11 samples.

Results

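The 10 genes followed here through a mouse model of cortical injury move cholesterol out of cells or store lipid inside them: Abca1, Abcg1, Apod, Clu, Lcat, Soat1, Plin2, Npc1, Npc2 and Ch25h. They were taken as every array probe whose RefSeq accession belongs to 1 of these 10 symbols, which gave 11 probes, with 2 for Apod and 1 for each of the others. All 10 passed the filter on dim probes and made up 10 of 25998 features tested, 16033 of which carried a gene symbol. RNA came from the cortex of the right hemisphere of 22 mice on a C57/Bl6J background, aged 5 to 7 months, read on 11 Agilent arrays with 2 colours, 1 mouse in each colour. TC mice (n = 6) carried the transgene pair GFA2-tTa/TetO-VP16-CREB and had a focal cryolesion. WTC mice (n = 5) were wild type with the same lesion, T mice (n = 5) were intact carriers of the transgene pair, and WT mice (n = 6) were intact wild types. In these carriers a transactivator under the astrocyte promoter GFA2 drives VP16-CREB, a CREB protein that is always active, from a tetracycline-controlled promoter, so the transgene acts in astrocytes while the RNA comes from all cells of the tissue. The lesion was made by 30 s of dry ice on the brain surface, and lesioned mice were killed 3 days later. The series asks how active CREB in reactive astrocytes bears on cortical injury.

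Brain cells cannot break down the cholesterol ring, so surplus cholesterol must be exported, converted or stored. Cholesterol taken up with debris is freed in lysosomes, passed from the soluble carrier NPC2 to the membrane protein NPC1, and then either esterified by SOAT1 and kept in lipid droplets coated by perilipin 2 (Plin2), or loaded by the transporters ABCA1 and ABCG1 onto apolipoprotein particles. Clusterin (Clu) and apolipoprotein D (Apod) are lipid carriers secreted by glia, LCAT esterifies cholesterol on such particles, and CH25H makes 25-hydroxycholesterol, an oxysterol that acts on sterol sensors and immune cells. Abca1 and Abcg1 are textbook targets of the oxysterol receptors LXR, and macrophages that engulf myelin are known for filling with lipid droplets.

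Both fits used limma with Benjamini-Hochberg adjustment over all 25998 features. The ratio fit used the 11 ratios between mice of the same array (7 residual degrees of freedom). The separate-channel fit used the 22 channels and so also compared mice on different arrays (17 residual degrees of freedom). A gene is said to be called when its adjusted p was under 0.05, and values are log2 ratios with their standard error (SE) or log2 levels per mouse with the dye effect removed. Each channel was a separate mouse, so the p-values measure the spread between animals. Arrays A to F lay on 1 slide with all 6 WT, 3 T, 2 WTC and 1 TC mice, and arrays I to M on another with 2 T, 5 TC and 3 WTC mice. By sex-linked genes 4 of the 22 mice were female, 1 T, 1 WTC and 2 WT. The Cy3 mice of 3 arrays (I, J and K) carry a different group in the second channel's label than in the title, and the title was followed. By the title they are TC, T and TC, and by that label T, TC and T. The TC mouse of array I stood apart, since its levels of Plin2, Ch25h and Abca1 lay among those of intact mice. The second channel's label gives this same mouse as T, an intact group, and its place among the TC mice was taken from the title. Its mean astrocyte marker level (13.19) was above those of all T (12.56 to 12.83) and WT (12.54 to 12.79) mice. Its monocyte (7.81) and microglia (10.91) marker levels lay among intact mice. The Cy3 mice of arrays J and K had monocyte marker levels of 7.70 and 10.48, beside 7.53 to 8.03 in WT and 9.24 to 10.58 in WTC mice. From 56.6% to 65.3% of spots per channel exceeded background clearly, none was marked saturated, and all 11 probes of the 10 genes were well above background in 22 of 22 channels. Neuron markers had mean log2 levels of 13.74 to 14.59 over single mice, while markers of striatum (mean log2 level 8.84 to 13.12 over single mice) and of choroid plexus (7.97 to 13.04) differed widely between mice of every group. They also differed between groups. In the separate-channel fit all 10 striatal markers were below 0 in WTC minus WT (median -0.87, 1 called), TC minus T (-1.35, 0 called) and T minus WT (-0.87, 0 called). Of 10 choroid plexus markers 10 were above 0 in WTC minus WT (median 1.90) and 9 in TC minus T (0.52), with 0 called in each. The part of these in the results was not tested.

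Promoters of 7 of the 10 genes were found in the RefSeq promoter table of build GRCm38.p6 (250 bases before to 50 after the start), those of Abcg1, Clu and Npc1 not among them. Shown, cut 30 bases after the start, are the 3 that hold the full cAMP response element or the E-box. Capitals mark TGACGTCA, the full cAMP response element bound by CREB, in Ch25h, and the E-box CACGTG in Abca1 and Plin2.
Ch25h, chr19:34475119-34475398, minus strand: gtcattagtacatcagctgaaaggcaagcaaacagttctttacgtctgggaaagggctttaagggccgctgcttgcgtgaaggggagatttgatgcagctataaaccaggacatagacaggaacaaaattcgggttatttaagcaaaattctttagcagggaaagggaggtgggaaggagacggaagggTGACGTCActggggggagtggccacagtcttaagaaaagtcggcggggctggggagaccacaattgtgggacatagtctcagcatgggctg
Abca1, chr4:53159866-53160145, minus strand: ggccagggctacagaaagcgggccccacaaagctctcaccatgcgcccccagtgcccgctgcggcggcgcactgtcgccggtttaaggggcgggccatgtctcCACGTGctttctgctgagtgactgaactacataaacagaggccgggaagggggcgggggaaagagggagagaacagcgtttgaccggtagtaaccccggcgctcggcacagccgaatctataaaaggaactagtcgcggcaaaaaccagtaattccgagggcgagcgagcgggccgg
Plin2, chr4:86670030-86670309, minus strand: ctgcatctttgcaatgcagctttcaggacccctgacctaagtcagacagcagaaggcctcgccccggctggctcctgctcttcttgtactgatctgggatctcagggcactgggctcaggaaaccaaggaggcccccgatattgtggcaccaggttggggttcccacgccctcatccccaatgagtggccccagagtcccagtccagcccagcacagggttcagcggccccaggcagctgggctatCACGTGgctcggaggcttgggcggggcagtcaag
The 5 motifs were searched on both strands of all 32851 promoters of the table. The full element TGACGTCA was in 1.79% of them and, of the 7 genes, in Ch25h, from base -61 to -54 relative to the start. Its shorter core TGACG, which overlaps the full element, was in 20.8% of promoters and in Ch25h and Soat1. The E-box CACGTG was in 7.15% of promoters and in Abca1 and Plin2. The exact letters of the AP-1 site TGACTCA (5.2% of promoters) and of the LXR repeat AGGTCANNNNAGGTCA (0.0152% of promoters) were in none of the 7. Variants of the motifs were not searched. The exact LXR repeat was in only 5 promoters of the table, so its absence cannot tell whether these genes hold an LXR site. These matches describe letters in a short window and say nothing of whether a factor binds there.

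**Figure D1:**
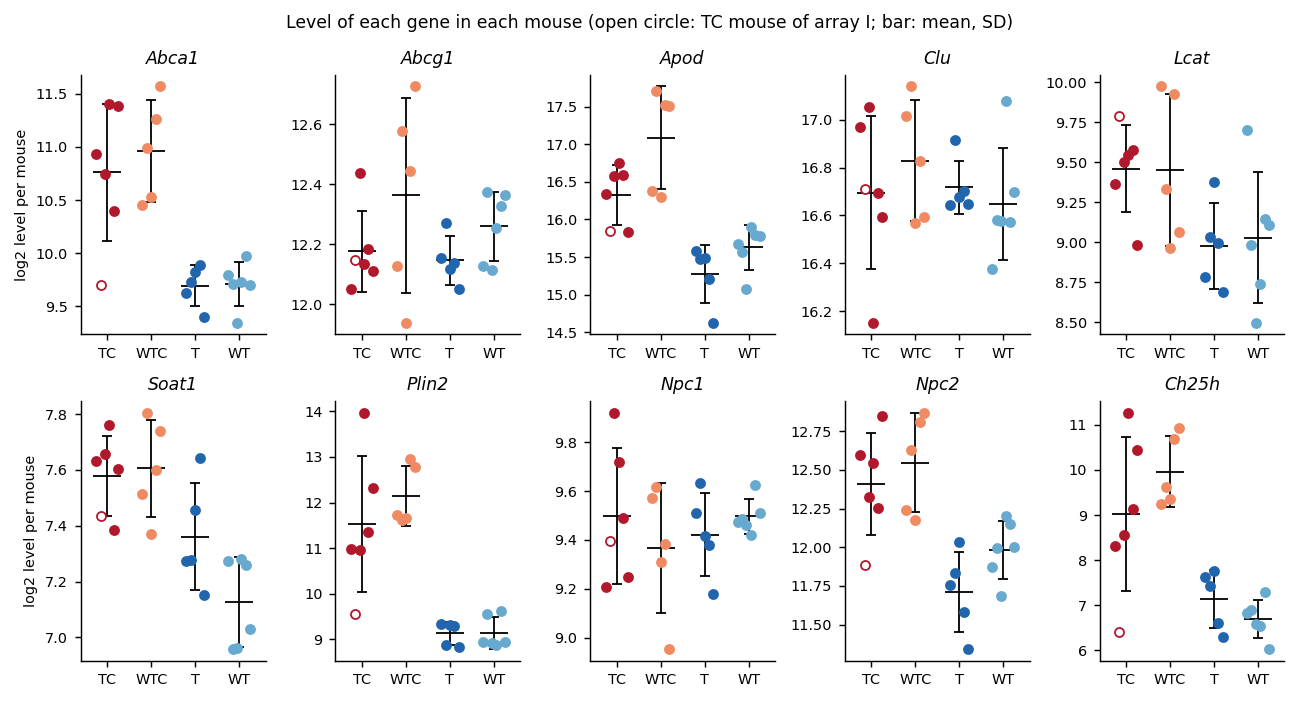
Log2 level of each of the 10 genes (vertical axes, 1 panel a gene) in each of 22 mice by group (TC, WTC, T, WT); bars give the mean and SD, and the open circle is the TC mouse of array I. Plin2 and Ch25h separate lesioned from intact mice except for that TC mouse, while Abcg1, Clu and Npc1 overlap across all groups.

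The first comparison asked what the lesion did in wild type cortex. In the separate-channel fit 6 of the 10 genes rose in WTC mice against WT mice (Plin2, Ch25h, Apod, Abca1, Npc2 and Soat1) and none fell, where 14.3% of all features were called up. The median log2 ratio of the 10 genes was 0.53, against -0.03 over all features. In the ratio fit of limma 0 of the 10 were called, with 8 of the 10 at an unadjusted p under 0.05, and 0.0231% of all features (6 of 25998) were called up. Levels of 5 of the 10 genes lay wholly above those of WT mice in the WTC mice, and 9.24% of all features did so. With a slide term the same 6 genes were called in the separate-channel fit, and with a term for sex the count was 6. The count was 8 without array K and 4 without array B, and in the ratio fit it was 4 without array I and 3 without array K.

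Plin2, the coat protein of lipid droplets, had log2 levels of 11.72, 11.61, 11.66, 12.95 and 12.78 in the 5 WTC mice, against 8.87, 8.93 and 9.61 (lowest, median, highest) in the 6 WT mice. Every WTC mouse was above every WT mouse. The log2 ratio was 2.72 ± 0.50 (SE) in the separate-channel fit, a 6.61-fold difference with an adjusted p of 0.00112, and 2.06 ± 0.64 in the ratio fit (adjusted p = 0.141). Soat1, the enzyme that makes cholesterol esters for droplets, had levels of 7.51, 7.81, 7.37, 7.60 and 7.74 in WTC mice, against 6.96, 7.14 and 7.28 (lowest, median, highest) in WT mice. The groups did not overlap, but the step was small, at 0.49 ± 0.11 (adjusted p = 0.00475) in the separate-channel fit and 0.51 ± 0.18 (adjusted p = 0.177) in the ratio fit.

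The oxysterol enzyme Ch25h had the highest log2 ratio of the 10. Its levels were 9.25, 9.62, 9.35, 10.68 and 10.93 in WTC mice, against 6.03, 6.71 and 7.29 (lowest, median, highest) in WT mice, with no overlap. The log2 ratio was 2.98 ± 0.57 in the separate-channel fit, a 7.91-fold difference (adjusted p = 0.0014), and 2.31 ± 0.62 in the ratio fit (adjusted p = 0.116). Of all features, 99.8% had a lower log2 ratio than Ch25h in the separate-channel fit and 99.7% a lower one than Plin2.

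Among the export genes, the transporter gene Abca1 had levels of 10.46, 10.99, 10.52, 11.26 and 11.57 in WTC mice, against 9.35, 9.72 and 9.97 (lowest, median, highest) in WT mice. All WTC mice were above all WT mice, by a log2 ratio of 1.17 ± 0.25 in the separate-channel fit (adjusted p = 0.00317) and 0.996 ± 0.36 in the ratio fit (adjusted p = 0.178). Its partner Abcg1, which loads particles that already hold lipid, had 0.11 ± 0.11 (adjusted p = 0.443) in the separate-channel fit, and its WTC levels (11.94 to 12.73) enclosed the WT levels (12.11 to 12.37). Among the carriers, Apod had levels of 16.38, 17.71, 16.30, 17.53 and 17.51 in WTC mice, against 15.07, 15.73 and 15.89 (lowest, median, highest) in WT mice. Its groups did not overlap, with 2 of the WTC mice at 16.30 and 16.38 and the other 3 at 17.51 or higher. The log2 ratio of Apod was 1.49 ± 0.27 in the separate-channel fit (adjusted p = 0.00098) and 1.59 ± 0.39 in the ratio fit (adjusted p = 0.109), and its dimmer probe gave 1.56 there. Clu had 0.29 ± 0.14 (adjusted p = 0.127) in the separate-channel fit and 0.55 ± 0.14 (adjusted p = 0.115) in the ratio fit. Lcat had 0.44 ± 0.19 (adjusted p = 0.0885) in the separate-channel fit and 0.51 ± 0.17 (adjusted p = 0.156) in the ratio fit.

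Of the lysosomal pair, Npc2 had levels of 12.24, 12.63, 12.18, 12.81 and 12.87 in WTC mice, against 11.68, 11.999 and 12.20 (lowest, median, highest) in WT mice. The lowest WTC mouse was just below the highest WT mouse. The log2 ratio of Npc2 was 0.57 ± 0.16 in the separate-channel fit (adjusted p = 0.0142) and 0.58 ± 0.19 in the ratio fit (adjusted p = 0.156). Npc1, which takes over cholesterol from it at the lysosomal membrane, had -0.10 ± 0.12 (adjusted p = 0.581) and 0.01 ± 0.16 (adjusted p = 0.989) in these fits.

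**Figure D2:**
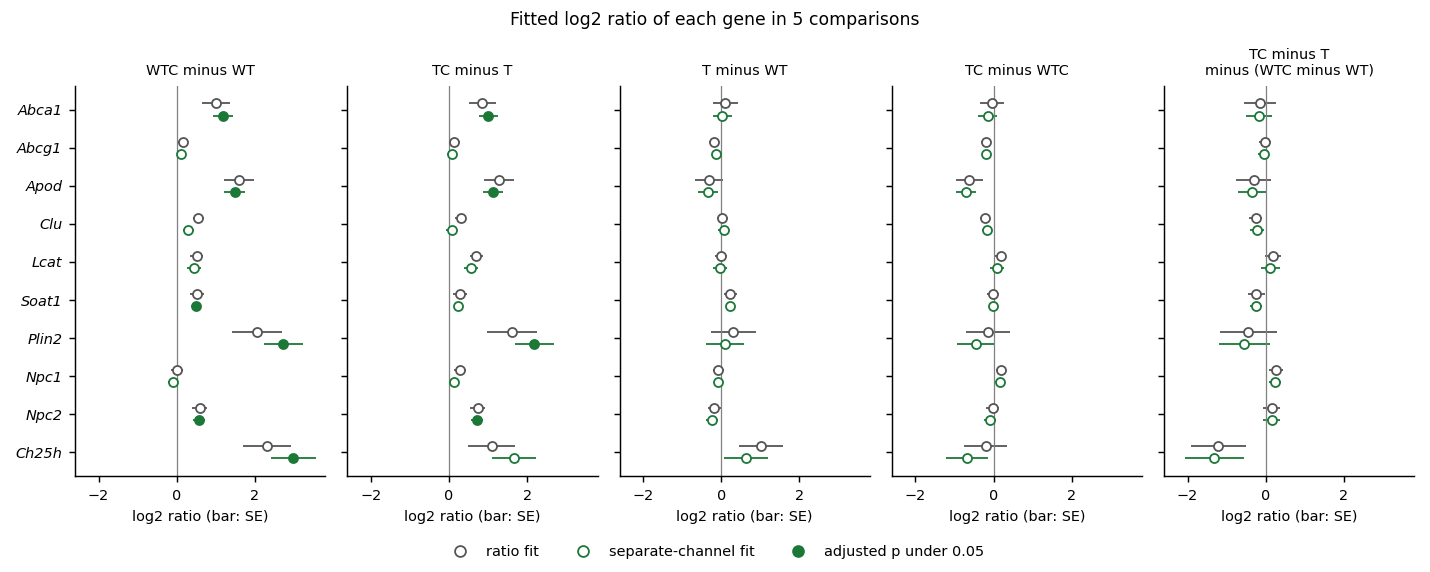
Fitted log2 ratios (horizontal axes) of the 10 genes in 5 comparisons, with SE bars, from the ratio fit (grey) and the separate-channel fit (green); filled points have an adjusted p under 0.05. Filled points stand at 6 genes in WTC minus WT and 4 in TC minus T, and at none in the other 3 comparisons.

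The second comparison asked the same of transgenic cortex. In the separate-channel fit 4 of the 10 genes rose in TC mice against T mice (Plin2, Apod, Abca1 and Npc2) and none fell, where 4.7% of all features were called up. The median log2 ratio of the 10 was 0.64, against -0.02 over all features, and all 10 ratios were positive. In the ratio fit of limma 0 of the 10 were called, with 5 of the 10 at an unadjusted p under 0.05, and 0% of all features were called in either direction. Levels of 2 of the 10 genes (Apod and Plin2) lay wholly above those of T mice in all 6 TC mice, where 2.07% of all features did so. The count of calls rested on few arrays: it was 6 without array I, 1 without array E and 0 without array J. Under the channel 2 labels of arrays I, J and K it was also 0. Those labels count the Cy3 mouse of array K (mean monocyte marker level 10.48) as T and that of array J (7.70) as TC.

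Plin2 had levels of 9.55, 11.17 and 13.97 (lowest, median, highest) in the 6 TC mice, against 9.35, 8.88, 9.31, 9.30 and 8.83 in the 5 T mice. The lowest TC value was the mouse of array I, just above the T mice, and the other 5 TC mice were at 10.96 or higher. The log2 ratio was 2.18 ± 0.50 in the separate-channel fit (adjusted p = 0.0156) and 1.61 ± 0.63 in the ratio fit (adjusted p = 0.378). Ch25h had levels of 6.40, 8.85 and 11.27 (lowest, median, highest) in TC mice, against 7.62, 7.42, 7.76, 6.61 and 6.29 in T mice. The TC mouse of array I lay within the T mice and the other 5 TC mice were at 8.32 or higher. Its log2 ratio of 1.67 ± 0.56 did not pass in the separate-channel fit (adjusted p = 0.0731), nor did 1.09 ± 0.61 in the ratio fit (adjusted p = 0.505).

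Abca1 had levels of 9.70, 10.84 and 11.40 (lowest, median, highest) in TC mice, against 9.62, 9.73, 9.82, 9.89 and 9.40 in T mice. Again only the TC mouse of array I fell among the T mice. The log2 ratio was 1.01 ± 0.25 in the separate-channel fit (adjusted p = 0.0216) and 0.86 ± 0.35 in the ratio fit (adjusted p = 0.395). Apod had levels of 15.83, 16.46 and 16.75 in TC mice, against 15.57, 15.47, 15.49, 15.21 and 14.63 in T mice, with no overlap. Its log2 ratio was 1.13 ± 0.26 in the separate-channel fit (adjusted p = 0.0178) and 1.28 ± 0.38 in the ratio fit (adjusted p = 0.306). Npc2 had levels of 11.89, 12.43 and 12.85 in TC mice, against 11.76, 11.83, 12.03, 11.58 and 11.34 in T mice. Its lowest TC mouse was below its highest T mouse, and the log2 ratio was 0.71 ± 0.15 (adjusted p = 0.0121) in the separate-channel fit and 0.74 ± 0.19 (adjusted p = 0.274) in the ratio fit. Lcat had 0.56 ± 0.19 (adjusted p = 0.0714) in the separate-channel fit, and the smallest unadjusted p of the 10 in the ratio fit, at 0.70 ± 0.17 (adjusted p = 0.266). Soat1, Npc1, Clu and Abcg1 had log2 ratios from 0.07 to 0.24 in the separate-channel fit, with adjusted p-values of 0.187 for Soat1 and higher for the other 3.

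The called genes were also read within slides. The slide of arrays A to F holds 1 TC mouse, so the standard errors of TC minus T there come from the other groups, and that mouse is assumed to vary like them. On it the separate-channel log2 ratio of TC minus T was 1.68 ± 0.14 for Plin2, 1.44 ± 0.24 for Abca1, 1.30 ± 0.40 for Apod and 0.93 ± 0.21 for Npc2. On the slide of arrays I to M, which holds the TC mouse of array I, these were 1.88 ± 0.90, 0.83 ± 0.45, 1.38 ± 0.42 and 0.78 ± 0.24, and 0 of the 10 genes were called there in limma's separate-channel fit. The comparison WTC minus WT could be made on the slide of arrays A to F alone, where it was 2.45 ± 0.09 for Plin2, 2.65 ± 0.23 for Ch25h, 0.999 ± 0.15 for Abca1 and 1.43 ± 0.25 for Apod. All 4 of these were called there, with 2 WTC mice.

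**Figure D3:**
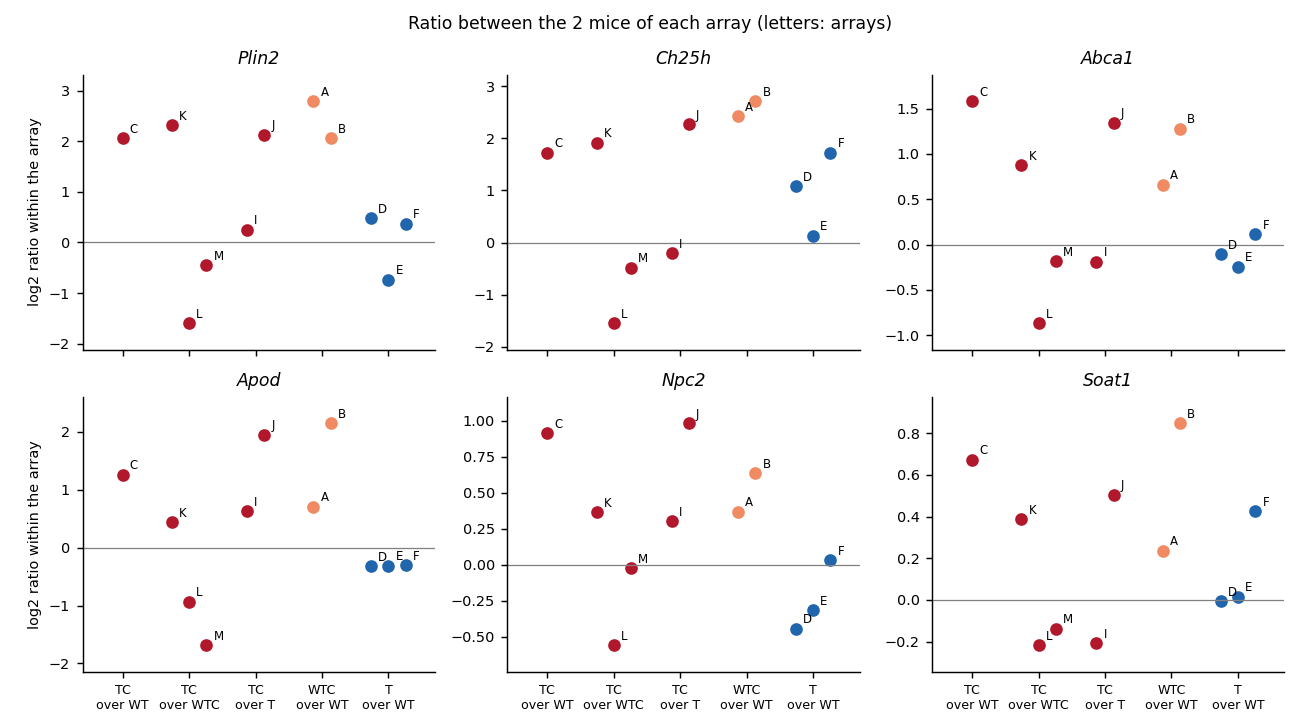
Log2 ratio between the 2 mice of each array, with the dye effect removed (vertical axes), for 6 genes, by kind of pairing (horizontal axis), with letters naming the arrays. Arrays A, B, C and J, which pair a lesioned with an intact mouse, lie above 0 for all 6 genes, and the 3 arrays of TC over WTC spread to both sides of 0 for each gene.

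The ratios within arrays need no comparison across arrays. Arrays A and B, both WTC over WT, gave 2.79 and 2.05 for Plin2, 2.43 and 2.71 for Ch25h, 0.66 and 1.28 for Abca1 and 0.71 and 2.15 for Apod. Array C, TC over WT, gave 2.06 for Plin2 and 1.73 for Ch25h. Of the 2 arrays of TC over T, array J gave 2.13 for Plin2, 2.27 for Ch25h and 1.34 for Abca1, and array I gave 0.26, -0.21 and -0.19 for the same genes. All 5 arrays of a lesioned with an intact mouse were above 0 for Apod, Npc2, Lcat, Plin2 and Clu, though Clu had only 0.01 on array I, where Apod had its lowest ratio, 0.63.

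The third comparison asked what VP16-CREB did in intact cortex. In T mice against WT mice 0 of the 10 genes were called by limma in either fit, and 0% of all features were called in each. At an unadjusted p under 0.05 there were 0 of the 10 in the ratio fit and 1 in the separate-channel fit, Soat1 at 0.23 ± 0.11 (adjusted p = 0.9999). In each fit 5 of the 10 log2 ratios were positive, with medians of 0.01 and -0.01 against 0.00 over all features. Ch25h had the highest of them, at 1.01 ± 0.55 (adjusted p = 0.982) in the ratio fit and 0.63 ± 0.55 (adjusted p = 0.9999) in the separate-channel fit. The 3 T mice of arrays D, E and F were at 7.62, 7.42 and 7.76, above all 6 WT mice, and those of arrays I and J at 6.61 and 6.29 were among the WT mice. These 2 T mice lay on the other slide, and a slide effect and a difference between mice cannot be told apart for them. Apod ran the other way without passing, at -0.34 ± 0.26 (adjusted p = 0.9999) in the separate-channel fit, with -0.32, -0.31 and -0.30 on arrays D, E and F. Its dimmer probe gave 0.04 in the ratio fit, where the probe used gave -0.31.

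The fourth comparison asked how VP16-CREB altered the lesioned cortex. In TC mice against WTC mice 0 of the 10 genes were called by limma in either fit, where 0% of all features were called in the ratio fit and 0.142% in the separate-channel fit. At an unadjusted p under 0.05 there were 0 in the ratio fit and 1 in the separate-channel fit, Apod. Its log2 ratio was -0.70 ± 0.26 (adjusted p = 0.21) in the separate-channel fit and -0.62 ± 0.35 (adjusted p = 0.438) in the ratio fit. The TC mice (15.83 to 16.75) overlapped only the lower 2 WTC mice (16.30 and 16.38), and without array K Apod was called. Oligodendrocyte markers, known for myelin, were lower too: all 10 had log2 ratios below 0 in TC minus WTC (median -0.34). In T minus WT 1 of 10 was above 0 (median -0.35), with 0 of 10 called in each. Of these markers 5 were above 0 in WTC minus WT (median 0.07) and 8 in TC minus T (median 0.19), where Apod rose. All measured markers of microglia, infiltrating monocytes, choroid plexus, ependyma and striatum were below 0 in TC minus WTC as well (separate-channel fit). The mean log2 level of the oligodendrocyte markers was 12.42 to 13.65 in TC, 13.24 to 13.81 in WTC, 12.58 to 13.12 in T and 13.09 to 13.34 in WT mice. The T mouse of array J was the lowest T mouse both for this list and for Apod. The lowest TC mouse for the list, that of array C, had an Apod level of 16.33. The part of these cell types in the levels of Apod was not tested. Plin2 and Ch25h had -0.45 ± 0.48 (adjusted p = 0.627) and -0.68 ± 0.54 (adjusted p = 0.515), and 8 of the 10 ratios were negative, the exceptions being Npc1 and Lcat. The spread among TC mice was wide, with an SD of 1.49 for Plin2 and 1.71 for Ch25h, against 0.66 and 0.78 among WTC mice. On the 3 arrays of TC over WTC the ratio of Plin2 was 2.31, -1.59 and -0.45.

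The difference between both lesion effects, TC minus T minus (WTC minus WT), was tested directly. In either fit limma called 0 of the 10 genes, 0 of the 10 had an unadjusted p under 0.05, and 0% of all features were called. The lowest value was that of Ch25h, at -1.31 ± 0.75 (adjusted p = 0.766) in the separate-channel fit and -1.22 ± 0.71 (adjusted p = 0.807) in the ratio fit. Plin2 had -0.54 ± 0.66, Apod -0.36 ± 0.35 and Abca1 -0.17 ± 0.33 in the separate-channel fit, with adjusted p-values of 0.862, 0.8287 and 0.918. With standard errors of 0.66 for Plin2 and 0.75 for Ch25h, similar lesion effects in both genotypes were not shown for these genes.

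Marker lists of cell types moved in the same comparisons. The shares of all features called up, to set beside the counts below, were 14.3% in WTC minus WT and 4.7% in TC minus T. In bulk tissue more cells of a type and more RNA per cell cannot be told apart. Of 9 measured markers of infiltrating monocytes 9 rose in WTC minus WT and 3 in TC minus T, in the separate-channel fit. Their mean log2 level ran from 7.81 to 10.48 in TC mice, 9.24 to 10.58 in WTC mice, 7.64 to 8.21 in T mice and 7.53 to 8.03 in WT mice. The monocyte chemokine receptor gene Ccr2 was well above background in 6 of 6 TC and 5 of 5 WTC mice, but in 0 of 5 T and 1 of 6 WT mice. Most other markers of the list were not so: Fn1, Vcan, Lyz1, S100a4 and Cd14 were well above background in all mice. In intact mice Plac8 was so in 5 of 5 T and 4 of 6 WT, Chil3 in 3 of 5 and 4 of 6, and Arg1 in 2 of 5 and 0 of 6. Of 9 markers of microglia and macrophages 7 rose in WTC minus WT and 5 in TC minus T, with mean levels of 10.91 to 12.91 in TC, 12.22 to 12.89 in WTC, 11.02 to 11.22 in T and 10.85 to 11.34 in WT mice. The TC mouse of array I had the lowest TC value of both lists, 7.81 and 10.91. Astrocyte markers rose as 6 of 10 in WTC minus WT and 4 of 10 in TC minus T, from 13.08 to 13.52 in TC, 13.31 to 13.51 in WTC, 12.56 to 12.83 in T and 12.54 to 12.79 in WT mice, and the TC mouse of array I had 13.19. Ependymal markers rose as 8 of 10 in WTC minus WT and 0 of 10 in TC minus T. Markers of meningeal and perivascular fibroblasts rose as 4 of 10 in WTC minus WT and 2 of 10 in TC minus T. Their mean levels were 9.19 to 9.77 in TC, 8.91 to 9.87 in WTC, 8.43 to 9.32 in T and 8.59 to 9.11 in WT mice. The part of these cell types in the levels of the 10 genes was not tested.

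**Figure D4:**
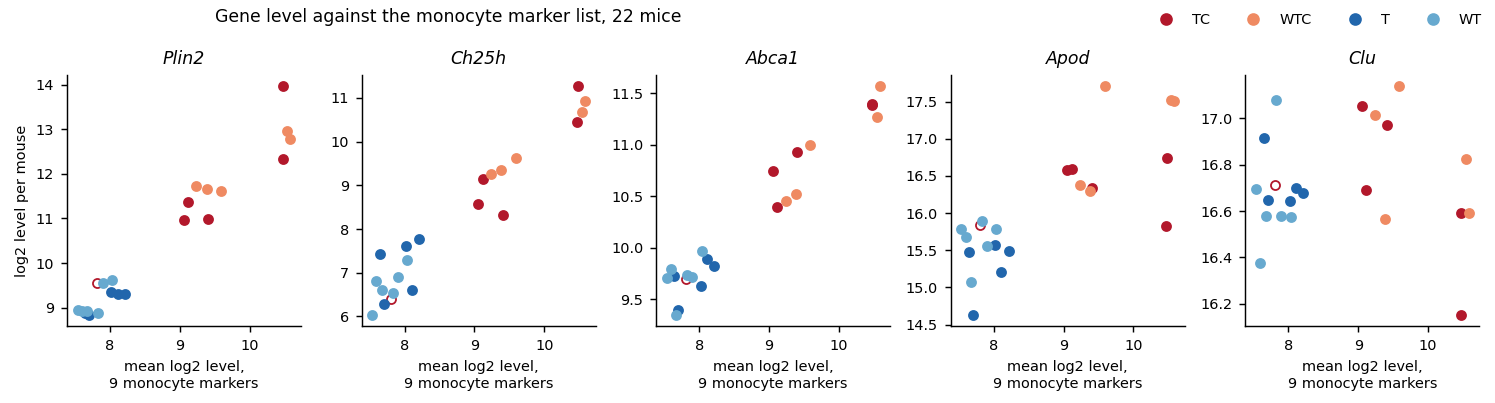
Log2 level of 5 genes (vertical axes) against the mean log2 level of 9 infiltrating monocyte markers (horizontal axes) in 22 mice, coloured by group, with the TC mouse of array I open. Plin2, Ch25h and Abca1 are high in the mice with high marker levels, and the 2 TC and 2 WTC mice with the highest marker levels are also the highest 4 for Ch25h; Clu does not separate these mice.

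Some of the genes had like orders of levels from mouse to mouse. Pearson's r of Plin2 with Ch25h was 0.97 over the 22 mice, 0.97 within the 11 lesioned mice, 0.96 within 10 of these once the TC mouse of array I was left out, and 0.51 within the 11 intact mice. For Abca1 with Npc2 it was 0.92, 0.94, 0.91 and 0.59. These are descriptions with no test, since mice share arrays in pairs and lesioned and intact mice form separate clusters. The genes whose levels over the 22 mice were most like those of Plin2 were C3ar1, a complement receptor (r = 0.99), and Slc15a3, a lysosomal peptide transporter (0.99). Those most like Ch25h were C5ar1, another complement receptor (0.98), and again Slc15a3 (0.98). Those most like Abca1 were Gusb, the lysosomal enzyme beta-glucuronidase (0.98), and Apobr, a lipoprotein receptor (0.98). Apod was followed by Trf, transferrin (0.97), and Ctnna1, an alpha-catenin (0.95), and Npc2 by Myl12a and Krcc1 (0.94 each). Soat1 came with Nagpa (0.88) and Snrpe (0.87), Lcat with Rassf4 (0.84) and Slc41a1 (0.82), Abcg1 with Igf2r and Ppwd1 (0.80 each), Clu with Ctf1 (0.78) and Mon2 (0.76), and Npc1 with Sptlc1 (0.79) and Chst3 (0.75).

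The wider pathway was read from 4 lists that hold none of the 10 genes. Of 27 measured efflux and lipoprotein genes 5 rose and 2 fell in WTC minus WT (median log2 ratio 0.07), and 3 rose and 1 fell in TC minus T (median 0.02), in the separate-channel fit. Over all features 14.3% were called up and 12.2% down in WTC minus WT, and 4.7% up and 2.63% down in TC minus T, which are the shares to set beside the counts of each list. The ratio fit called 0 genes of the 4 lists in each comparison, and the separate-channel fit called 0 of them in the 3 comparisons other than WTC minus WT and TC minus T. Nr1h3, which encodes the oxysterol receptor LXR alpha, rose by 0.71 ± 0.13 in WTC minus WT (adjusted p = 0.00131) and by 0.73 ± 0.13 in TC minus T (adjusted p = 0.00408). Its levels were 9.60 to 10.12 in TC, 9.69 to 10.51 in WTC, 8.97 to 9.42 in T and 8.93 to 9.35 in WT mice, so that lesioned and intact mice did not overlap in either genotype. Lpcat3, a phospholipid remodelling enzyme and known LXR target, rose by 0.60 ± 0.13 and 0.53 ± 0.13, and Apoc1, a lipoprotein component, by 0.98 ± 0.28 and 1.24 ± 0.27 in these comparisons. Rxrb, a receptor partner of LXR, fell by 0.28 ± 0.06 and 0.24 ± 0.06. Abca9 rose by 0.56 ± 0.12 and Abca5 fell by 0.58 ± 0.16 in WTC minus WT. Without array J this list gave 1 call in TC minus T, and in WTC minus WT it gave 3 without array B and 4 with a slide term. Under the channel 2 labels of arrays I, J and K, and on slide 2 alone, 0 genes of each of the 4 lists were called in TC minus T, and without these arrays the efflux list had 0. Those labels count the Cy3 mouse of array K (mean monocyte marker level 10.48) as T and that of array J (7.70) as TC.

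Of 32 measured droplet and neutral lipid genes 5 rose and 5 fell in WTC minus WT (median -0.07), near the shares over all features of 14.3% up and 12.2% down. In TC minus T 2 rose and 3 fell (median -0.01), beside 4.7% up and 2.63% down. Among the perilipins, Plin3 rose by 0.81 ± 0.18 in WTC minus WT (adjusted p = 0.00421), while Plin4 fell by 1.59 ± 0.38 in TC minus T (adjusted p = 0.0183). Plin4 levels were 7.10 to 9.35 in TC mice, against 9.18 to 11.23 in T mice, and 7.94 to 8.79 in WTC mice, against 7.88 to 9.42 in WT mice. The T mice were thus the highest of the 4 groups for Plin4, which had a log2 ratio in T minus WT of 1.24 ± 0.37 that did not pass (adjusted p = 0.9999). Fabp7, a fatty acid carrier of astrocytes and their precursors, rose by 2.31 ± 0.34 in WTC minus WT (adjusted p = 0.00026) and by 2.04 ± 0.33 in TC minus T (adjusted p = 0.00192), and its levels did not overlap between lesioned and intact mice. The fatty acid carrier Fabp3 fell by 0.70 ± 0.13 and 0.62 ± 0.13. The fatty acid scavenger receptor gene Cd36 and Soat2, the second cholesterol esterifying enzyme, rose by 0.77 ± 0.20 and 0.80 ± 0.20 in WTC minus WT. Of the enzymes of triglyceride synthesis, Dgat1 fell by 0.46 ± 0.09 in WTC minus WT, while Dgat2 fell by 0.89 ± 0.20 and Agpat2 rose by 0.50 ± 0.11 in TC minus T. The esterase gene Nceh1 fell by 0.37 ± 0.10 and the lipase gene Pnpla3 by 0.45 ± 0.12 in WTC minus WT. In TC minus T the list gave 2 calls without array E or J, 3 without arrays I, J and K, and 1 on slide 1 alone, where there is 1 TC mouse.

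Of 25 endolysosomal and sterol transport genes 8 rose and 6 fell in WTC minus WT (median 0.12), beside 14.3% up and 12.2% down over all features. In TC minus T 4 rose and 3 fell (median 0.01), beside 4.7% up and 2.63% down. Tspo, an outer mitochondrial membrane protein used as a marker of reactive glia, rose by 2.20 ± 0.35 (adjusted p = 0.000463) and 1.71 ± 0.35 (adjusted p = 0.00862) in these comparisons. Lipa, the lysosomal acid lipase that frees cholesterol from esters, rose by 1.26 ± 0.26 and 0.96 ± 0.26, Lamp2, a lysosomal membrane protein, by 1.12 ± 0.15 and 0.89 ± 0.15, and Scarb2 by 0.59 ± 0.16 and 0.61 ± 0.16. The oxysterol binding proteins Osbp and Osbpl8 fell by 0.37 ± 0.07 and 0.54 ± 0.15 in WTC minus WT and by 0.26 ± 0.07 and 0.50 ± 0.14 in TC minus T, and Vps13a by 0.30 ± 0.09 and 0.32 ± 0.09. Osbpl1a fell by 0.80 ± 0.20 in WTC minus WT. In TC minus T the list gave 1 call without array J, 0 under the channel 2 labels, 0 on slide 2 alone and 3 with a slide term, and in WTC minus WT it gave 6 without array B and 8 under the channel 2 labels.

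Of 12 oxysterol genes 3 rose and 2 fell in WTC minus WT (median -0.15), beside 14.3% up and 12.2% down over all features. In TC minus T 2 rose and 3 fell (median 0.03), beside 4.7% up and 2.63% down. Besides Nr1h3, which is also in this list, Hsd3b7, which clears oxysterols toward bile acids, rose by 0.94 ± 0.14 (adjusted p = 0.000311) and 0.80 ± 0.14 (adjusted p = 0.00326). Cyp46a1, the neuronal enzyme that makes 24-hydroxycholesterol, fell by 0.60 ± 0.13 (adjusted p = 0.00308) and 0.43 ± 0.13 (adjusted p = 0.0442). Its levels were 9.34 to 9.84 in WTC mice, against 10.05 to 10.23 in WT mice. All 8 neuron markers were also below 0 in both comparisons in the separate-channel fit (medians -0.26 and -0.33). Few were called: 2 of 8 fell in WTC minus WT, beside 12.2% of all features, and 0 of 8 in TC minus T. Neuron markers had mean levels of 13.74 to 14.16 in TC, 13.79 to 14.29 in WTC, 14.13 to 14.59 in T and 14.30 to 14.43 in WT mice, and their part was not tested. Gpr183, the immune cell receptor for oxysterols made from the product of Ch25h, rose by 0.58 ± 0.14 in WTC minus WT (adjusted p = 0.00745), and the sterol sensor gene Insig1 fell by 0.54 ± 0.19. The sulfotransferase genes Sult1a1 and Sult2b1 fell by 0.85 ± 0.22 and 0.61 ± 0.18 in TC minus T. In TC minus T the list gave 1 call without array J, 2 without array E or K or with a slide term, 3 without array I and 1 without arrays I, J and K.

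**Figure D5:**
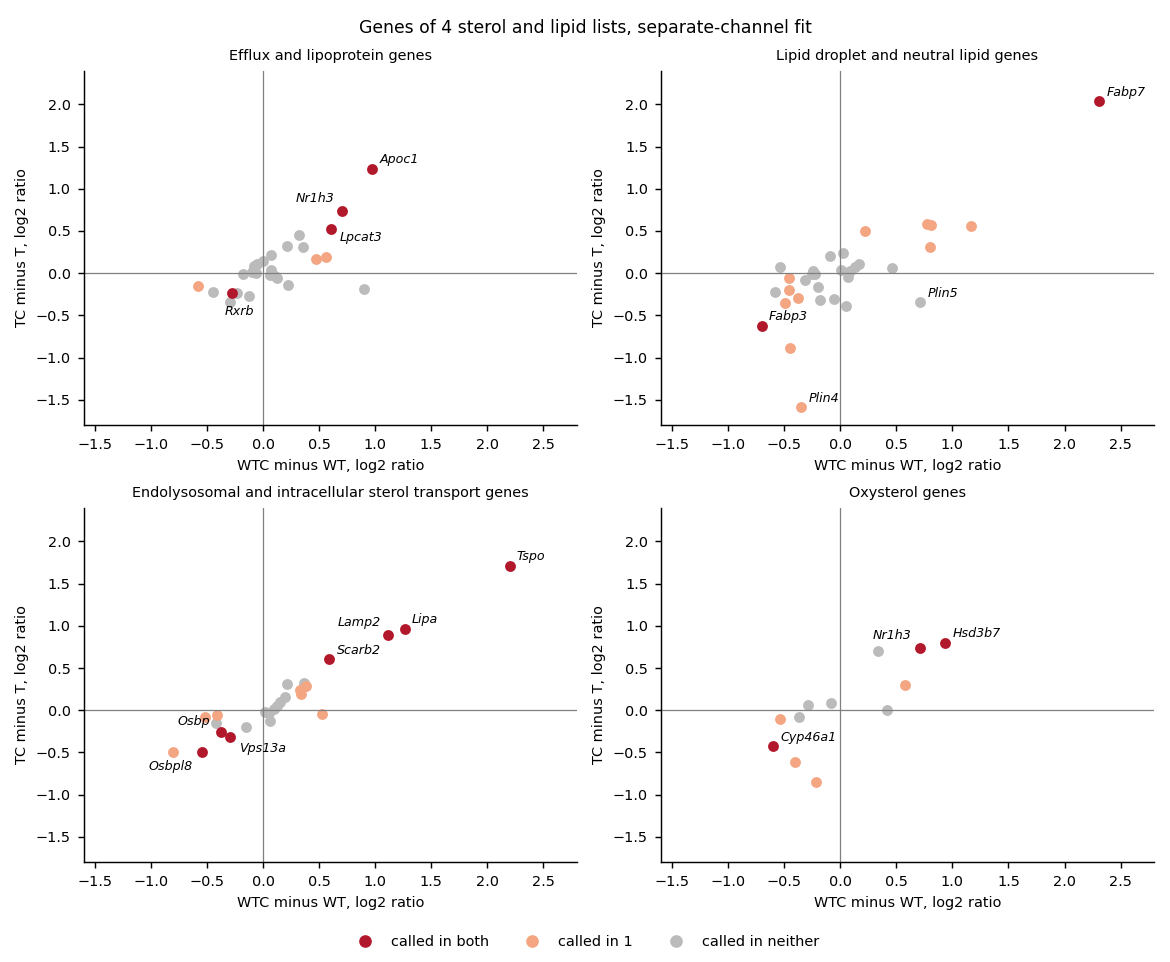
Log2 ratio of TC minus T (vertical axes) against that of WTC minus WT (horizontal axes) for the genes of 4 lists, separate-channel fit; dark red points were called in both comparisons, light ones in 1 and grey ones in neither. Tspo, Lipa, Lamp2, Fabp7, Apoc1 and Nr1h3 lie to the upper right, and Plin4, at -1.59 in TC minus T, lies at the bottom of the droplet panel.

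The authors' deposited table gives its own log ratios, base not stated, for the same probes. In the authors' deposited table the WTC minus WT log ratio was 3.78 for Ch25h, 2.94 for Plin2, 1.31 for Abca1, 0.63 for Soat1, 0.55 for Npc2, and 2.14 and 1.44 for the 2 Apod probes. The adjusted p-values of that comparison were not used, since some entries of the column exceed 1. For TC minus T the authors' deposited table gave adjusted p-values under 0.05 for Plin2 (1.83, adjusted p = 0.01), Abca1 (0.91, adjusted p = 0.0434), Npc2 (0.68, adjusted p = 0.04998) and both Apod probes (1.05 and 1.08). For TC minus WTC the authors' deposited table gave log ratios of -1.24 for Plin2 (adjusted p = 0.0355) and of -1.26 and -0.86 for the Apod probes (adjusted p = 0.00792 and 0.0412), both genes being uncalled in the fits above.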

How the data were processed

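Cortical RNA of 22 mice was read on 11 arrays. Per the file headers, the deposited intensity values are median pixel signals of spots and local background from Agilent Feature Extraction 10.7.3.1, neither background-subtracted nor normalized. The log10 ratios in the same deposited files, used as an alternative, are of processed red over green signal per the file headers. The authors' deposited table holds log ratios, taken as log2 although their base is not stated, and adjusted p-values from the authors' fit, with no record of the normalization behind them. For WTC minus WT the adjusted p-value column was not used, since some entries exceed 1.

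From the intensities, limma 3.58.1 in R 4.3.3 applied normexp (offset 50) and loess within arrays, giving control spots and flagged outliers no weight. After removal of those outliers, spots of a probe were averaged, and a probe needed 5 or more of 22 channels well above background. The probe with the highest mean intensity stood for a gene. Accessions were named through a RefSeq table, which gave 1 symbol to 26688 of 55681 probes. The ratio fit (lmFit, eBayes) had group and dye terms. The separate-channel fit (lmscFit) followed Aquantile scaling, with an intraspot correlation of 0.318. Both were tested on simulated data. Groups came from the titles. Intact and lesioned mice were compared within genotype, genotypes within lesion state, and the lesion effects with each other, with an adjusted p threshold of 0.05. Alternatives covered background correction, normalization, filters, probes, dye, slide, sex, labels, prior and single arrays. The number of arrays limits the precision. The 10 genes and all lists were chosen with earlier results of these data known. Named genes are all 10; per list and comparison up to 4 called genes a direction by smallest p; and the 2 features most correlated with each of the 10.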

Additional observations from a re-analysis of the deposited data

Results flagged for a closer look

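Of 40 groups of levels examined (10 genes in 4 groups of mice), 2 had a mouse far from the others of its group by Dixon's test, where chance alone sets apart about 1 group in 20. The highest TC mouse for Abcg1, that of array J, had a log2 level of 12.44, and the next TC mouse had 12.18. The highest T mouse for Clu, that of array E, had 16.91, and the next T mouse had 16.70.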

How the results depend on the processing

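Counts of the 10 genes called moved with the fit and with single arrays, and the cause was not tested. Where the ratio fit called 0, the separate-channel fit called 6 in WTC minus WT and 4 in TC minus T. For WTC minus WT the ratio fit called 4 on slide 1 alone, 4 without arrays I, J and K, and 0 to 4 when single arrays were left out, the 4 being without array I. The separate-channel fit called 4 to 8 there when single arrays were left out. For TC minus T it called 0 under the channel 2 labels, which count the Cy3 mouse of array K (mean monocyte marker level 10.48) as T. The separate-channel fit called 0 on slide 2 alone, and 0 (without array J) to 6 (without array I) when single arrays were left out. For TC minus WTC it called 1 gene (Plin2) on slide 1 alone, where the lone TC mouse is assumed to vary like the other groups, and 0 to 1 when single arrays were left out, the 1 being Apod without array K. Npc1, never called in the fits as reported, turned negative on slide 1 alone: in the ratio fit to -0.25 in TC minus T, -0.36 in TC minus WTC and -0.36 in the difference between the lesion effects, and in the separate-channel fit to -0.28, -0.38 and -0.39. Over all 1270 alternative values of the separate-channel fit no called value changed sign, and of 254 alternative values of called results 25 lost the call. In WTC minus WT the genes Abca1, Apod, Ch25h and Plin2 were called under all 25 alternatives that gave a value. The ratio fit pairs the mice of each array. No paired analysis by replicate number was possible because the numbers in the labels are animal numbers that no mice of different groups share. With 2 to 3 arrays per direct pairing, and 1 TC mouse on slide 1, slide and group are only partly separable.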
